A study of Mus musculus with 6 samples.

Results

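Genes that pattern the ventral and middle part of the neural tube were followed in P19, a line of mouse embryonal carcinoma cells that retinoic acid turns towards neurons and glia when the cells are aggregated. The set holds 8 genes of 17178 with a named probe on the array: Ptch1, Foxa2, Olig2, Nkx6-1, Nkx6-2, Dbx1, Isl1 and Sp8. They were chosen by their measured values, since earlier results from the same 6 arrays, the differences between the lines included, were known when the set was put together. For that reason their levels and differences are given as a description with no test. All 8 genes passed the filter for the fits, as part of 13381 genes.

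AICD/P19 cells express AICD, the intracellular domain released from the amyloid precursor protein by gamma-secretase, and were set against pCDNA/P19 cells, which hold the vector alone and are called the vector line here. Each line was sampled undifferentiated, aggregated (4 days in suspension clumps with 5e-07 M all-trans retinoic acid) and differentiated (replated from those clumps and kept 2 more days), and the same retinoic acid treatment was given to both lines. There was 1 array for each line and state, 6 in all, with no replicate of any line in any state. The labels do not say which promoter drives AICD, or whether a line is a single clone, so an effect of AICD and a difference between these particular lines cannot be told apart.

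In the developing neural tube, Sonic hedgehog spreads from the notochord and floor plate and, together with retinoic acid from the flanking somites, sets bands of progenitors that each switch on their own transcription factors. Ptch1 is the receptor that holds the pathway off and is also one of its targets. Foxa2 marks the floor plate, Olig2 the motor neuron progenitors above it, Nkx6-1 and Nkx6-2 a broad ventral field, and Dbx1 the progenitors of commissural interneurons in the middle of the tube. Sp8 is a zinc finger factor of intermediate progenitors and of the forebrain and limb, and Isl1 is a LIM homeodomain factor switched on in newly born motor neurons.

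The signal of a probe is given as a normalized log2 signal, the log2 of the processed spot brightness minus the 75th percentile of that array, so 0 is the 75th percentile of its array. Levels of different genes come from different probes and are not compared. A gene counts as measured where the scanner software called its probe well above background. Where it was not, the fold is a lower bound against the faintest signal that array could measure. Between 62.0% and 65.9% of the non-control spots of an array were well above background and 0 spots were saturated, and the median standard deviation between spots of a probe on an array was 0.0925 to 0.115 on the log2 scale. The undifferentiated arrays shared a slide and the other 4 arrays another, so state and slide cannot be told apart for the step into aggregation, while each line difference lies within 1 slide. In bulk RNA, fewer cells of a type and less RNA per cell cannot be told apart.

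In differentiated cells, 2 days after replating, Nkx6-1, Nkx6-2, Dbx1 and Sp8 had between 28.0-fold and at least 71.7-fold more signal in the AICD line. With normexp background correction their log2 differences were 4.55, 4.79, 4.45 and 3.86. Isl1, Ptch1 and Olig2 were also higher in differentiated AICD cells, and Foxa2 was the single gene of the set that was lower. In undifferentiated cells the differences ran from -0.44 for Ptch1 to 1.30 for Nkx6-2 among the 4 genes measured on both arrays.

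Nkx6-1 was well above background on all 6 arrays. Its normalized log2 signal in the AICD line was -1.67 undifferentiated, -1.43 aggregated and 2.35 differentiated, against -1.40, -2.79 and -2.85 in the vector line. The differentiated AICD array stood apart from the other 5 arrays, which lay below 0. The processed signal there was 3963, against 122 in differentiated vector cells. The line difference was -0.26 undifferentiated, 1.36 aggregated and 5.19 differentiated, the last a 36.6-fold difference that 5 other genes of 12282 measured on both arrays exceeded in the same direction.

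Nkx6-2, the close relative that works with Nkx6-1 in the ventral field and later in oligodendrocytes, was also well above background on all 6 arrays and ran a different course. It gave 3.21 undifferentiated, -1.25 aggregated and 3.06 differentiated in the AICD line, against 1.91, -2.93 and -2.20 in the vector line. Both lines were high before aggregation and low after it, and only the AICD line was high again after replating. The line difference was 1.30, 1.68 and 5.25 in the 3 states, the last 38.1-fold, with 4 other genes farther apart in that direction.

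Within the AICD line, replating was accompanied by a difference of 3.78 for Nkx6-1 and 4.31 for Nkx6-2, which 8 and 4 other genes of 12064 exceeded. The same step in the vector line gave -0.05 for Nkx6-1 and 0.74 for Nkx6-2. Aggregation gave Nkx6-2 values of -4.47 in the AICD line and -4.85 in the vector line, a similar size in both. Nkx6-1 showed 0.23 in the AICD line and -1.39 in the vector line at that step.

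The promoter windows of these genes are shown because the pair of paralogs had high signals together on the differentiated AICD array, and Dbx1 is shown with them as the gene whose signal was high a step earlier. Each window holds 300 bases from RefSeq on GRCm38.p6, with 250 bases before the annotated start and 50 from it, read 5′ to 3′ on the minus strand of the genome. Capitals mark a TATAAA or its reverse complement. Nkx6-1 lies at chr5:101664662-101664961, Nkx6-2 at chr7:139582748-139583047 and Dbx1 at chr7:49636786-49637085.

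Nkx6-1: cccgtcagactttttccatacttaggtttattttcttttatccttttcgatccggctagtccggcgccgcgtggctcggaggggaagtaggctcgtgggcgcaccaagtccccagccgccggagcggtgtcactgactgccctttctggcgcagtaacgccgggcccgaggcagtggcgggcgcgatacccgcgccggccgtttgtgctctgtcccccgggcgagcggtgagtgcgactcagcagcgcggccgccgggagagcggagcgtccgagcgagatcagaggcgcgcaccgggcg
Nkx6-2: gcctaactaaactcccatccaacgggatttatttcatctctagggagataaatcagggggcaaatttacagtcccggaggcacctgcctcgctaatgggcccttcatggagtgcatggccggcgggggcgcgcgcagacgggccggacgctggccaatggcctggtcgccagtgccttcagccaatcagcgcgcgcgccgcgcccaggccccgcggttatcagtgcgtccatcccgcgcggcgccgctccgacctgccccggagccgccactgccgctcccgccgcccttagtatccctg
Dbx1: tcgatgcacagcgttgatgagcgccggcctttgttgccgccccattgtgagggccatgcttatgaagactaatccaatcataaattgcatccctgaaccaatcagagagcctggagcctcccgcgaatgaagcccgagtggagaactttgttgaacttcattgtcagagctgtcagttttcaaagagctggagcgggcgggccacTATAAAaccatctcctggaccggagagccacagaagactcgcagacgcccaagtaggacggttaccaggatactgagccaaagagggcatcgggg

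The window of Nkx6-1 held 40 CG dinucleotides, that of Nkx6-2 held 32 and that of Dbx1 held 15, against a median of 7 over all promoter windows. The motifs searched on both strands were the GLI motif GACCACCCA, the homeodomain palindrome TAATTA, the nuclear receptor half-site AGGTCA, the E-box CATATG and the TATA box TATAAA; no pair of them overlapped in these windows. The TATA box of Dbx1 began at position -45 from its start, and this motif occurs in 13.6% of all 32851 windows. No searched motif was found in the windows of Nkx6-1 and Nkx6-2. Across the 12 windows that matched the 8 genes, GACCACCCA was found in 0, and it occurs in 0.253% of all windows. The window listed for Ptch1 lies at an internal start of the gene, so it says nothing of the sequence upstream of its first exon. TAATTA, found in 5.29% of all windows, AGGTCA, found in 16.3%, and CATATG, found in 3.92%, gave a match in the set only at Sp8, where TAATTA and the reverse complement of AGGTCA were present. Matches to TATAAA also began at -8 for Olig2 and at -230 and -118 for Sp8, and its reverse complement at -208 for Foxa2. Whether any match works as a TATA box was not tested.

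Dbx1 already stood far apart between the lines in aggregates. Its normalized log2 signal in the AICD line was -3.45 undifferentiated, 4.56 aggregated and 3.15 differentiated, against -7.67 (not well above background), -1.27 and -1.65 in the vector line. The AICD array was the brighter in all 3 states. In undifferentiated cells Dbx1 exceeded the vector line's limit by at least 5.45-fold in the AICD line, where its processed signal was 57.0. With normexp background correction the undifferentiated line difference was 0.63 for Dbx1, against 1.23 for Nkx6-2. The aggregated difference of 5.84, a 57.3-fold difference, was exceeded by 1 other gene of 11989, and the differentiated difference was 4.81, or 28.0-fold.

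Both lines had more Dbx1 signal after aggregation. The step was 8.01 in the AICD line, a 258-fold difference with 3 other genes of 11868 farther, and at least 24.6-fold in the vector line. With normexp background correction the steps were smaller, 6.94 in the AICD line and 2.04 in the vector line. After replating Dbx1 was lower in both, with a step of -1.41 (2.66-fold) in the AICD line and -0.38 in the vector line.

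Sp8 was well above background on all 3 AICD arrays, and in the vector line on the undifferentiated array alone. It gave -3.47 undifferentiated, -0.38 aggregated and 0.16 differentiated in the AICD line, against -4.47, -7.13 and -6.10 in the vector line, the last 2 values not well above background. In undifferentiated cells the AICD line was higher by 0.998 on the log2 scale, or by 0.28 with normexp background correction. The AICD line had at least 47.2-fold more signal in aggregates and at least 71.7-fold more after replating. With normexp background correction these line differences were smaller, 3.55 and 3.86 on the log2 scale. Sp8 moved apart during aggregation: it was 3.09 higher than in undifferentiated cells in the AICD line and at least 2.77-fold lower in the vector line. With normexp these steps were 2.35 and -0.93.

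**Figure D1:**
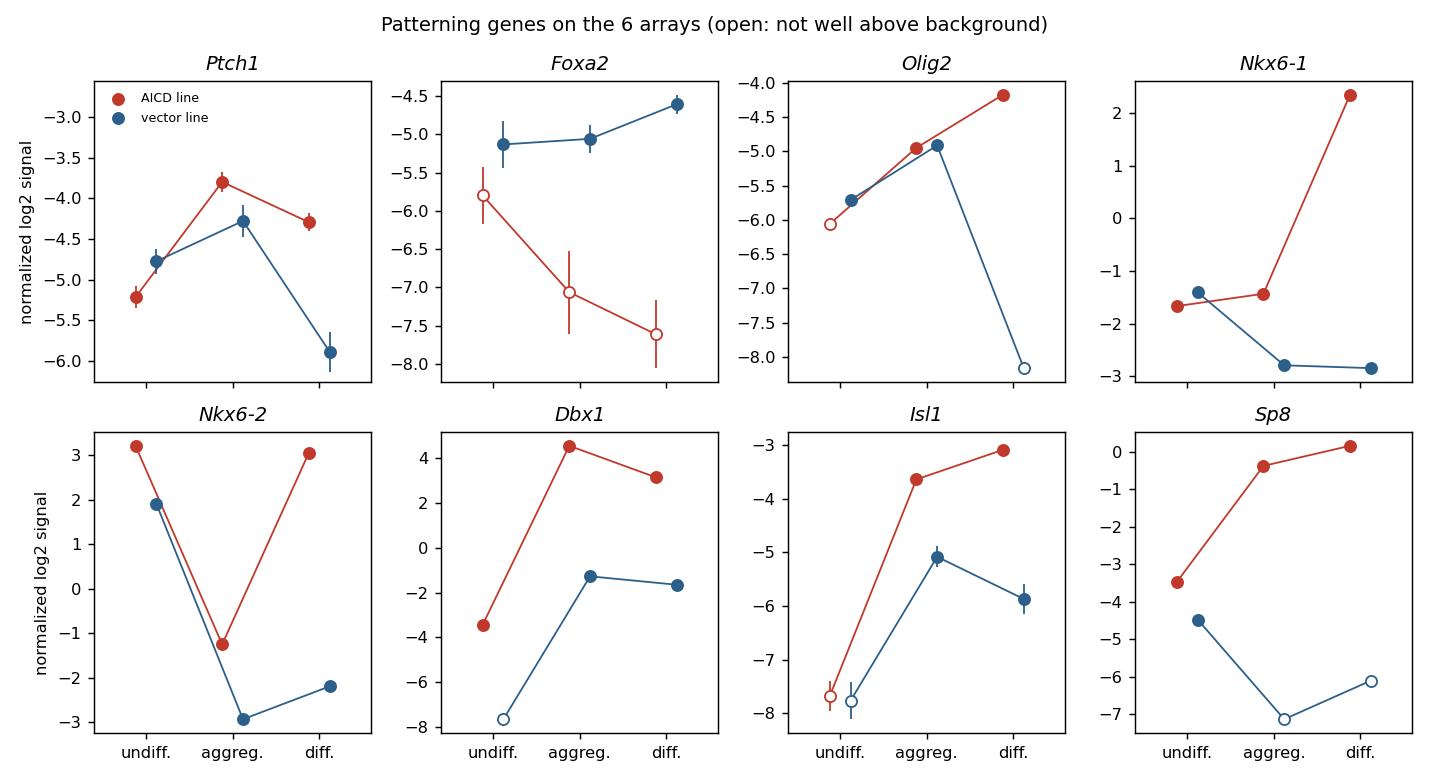
Normalized log2 signal of the 8 genes on the 6 arrays, with the AICD line in red to the left of the vector line in blue in each state. Open circles were not well above background, bars are the SD over the spots of probes printed several times, and the vertical scale differs between panels. Nkx6-1 and Nkx6-2 are high on the differentiated AICD array, Dbx1 and Sp8 on both later AICD arrays, and Foxa2 is open on all 3 AICD arrays.

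Foxa2 ran the other way. Its probe was printed in 10 spots on the array, and it gave -5.80, -7.06 and -7.61 in undifferentiated, aggregated and differentiated AICD cells, against -5.13, -5.06 and -4.60 in vector cells. It was well above background on the 3 vector arrays and on 0 of the 3 AICD arrays. The AICD line was at least 1.57-fold lower undifferentiated, at least 1.61-fold lower aggregated and at least 2.49-fold lower differentiated. With normexp background correction these differences were -0.26, -0.09 and -0.49 on the log2 scale. These are dim signals: the processed signal was 3.98 in differentiated AICD cells and 36.1 in differentiated vector cells, and the SD between spots lay between 0.13 and 0.54 on the log2 scale. Foxa1, the related forkhead factor, was likewise at least 2.45-fold lower in undifferentiated and at least 3.59-fold lower in differentiated AICD cells.

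Olig2 was near the limit of the array. The probe used gave -6.06 undifferentiated (not well above background), -4.95 aggregated and -4.17 differentiated in the AICD line, against -5.71, -4.91 and -8.16 in the vector line, the last not well above background. The lines did not separate in aggregates, where the difference was -0.04. After replating the AICD line had at least 3.56-fold more Olig2 signal, or 0.91 more on the log2 scale with normexp background correction. A second probe for the gene was well above background on 0 of the 6 arrays, so the value after replating rests on 1 probe.

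Isl1, measured by 10 spots, was not well above background in undifferentiated cells of either line, with -7.68 in AICD and -7.76 in vector cells. It gave -3.64 aggregated and -3.09 differentiated in the AICD line, against -5.08 and -5.87 in the vector line. The AICD arrays were brighter in both later states, by 1.44 and by 2.78, the second a 6.87-fold difference. The SD between spots of this probe was 0.34 at most, which is the spread within an array and not that between cultures. With normexp background correction these differences were 0.70 and 1.12. Aggregation was accompanied by an Isl1 signal that grew by at least 4.41-fold in AICD cells and by at least 1.76-fold in vector cells. With normexp these steps were 0.88 and -0.02 on the log2 scale.

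**Figure D2:**
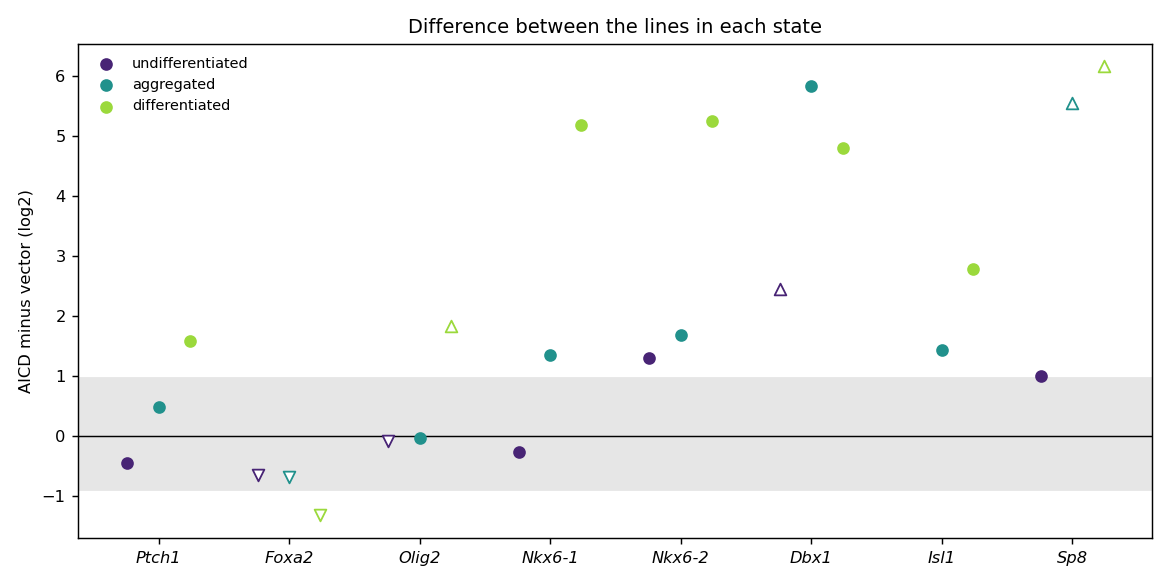
AICD minus vector (log2) for each gene in the 3 states. Filled circles were measured on both arrays, open triangles are bounds where 1 array was not well above background, and the grey band spans the widest of the 5th to 95th percentiles over all measured genes in these states. Isl1 has no point in undifferentiated cells because both arrays were below the limit.

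Ptch1 was well above background on all 6 arrays and differed less between the lines in aggregated and differentiated cells than Nkx6-1 and Nkx6-2 did. It gave -5.22, -3.80 and -4.29 in the AICD line through the 3 states, against -4.78, -4.28 and -5.89 in the vector line. The line difference was -0.44 undifferentiated, 0.48 aggregated and 1.60 differentiated, the last 3.02-fold. Without normexp background correction most of that last gap came with replating, where the step was -0.50 in the AICD line and -1.61 in the vector line. The differentiated vector value of -5.89 lay close to the lowest signal well above background on that array, -6.01. With normexp the line difference was 0.36 aggregated and 0.51 differentiated, and the replating steps were -0.41 in the AICD line and -0.56 in the vector line. The SD between its spots was 0.11 to 0.25.

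Counted over the set, the AICD array was brighter by a factor of 2 or more for 1 of 4 genes measured on both undifferentiated arrays, for 4 of 6 in aggregates and for 5 of 5 after replating. The share of all genes at least 2-fold higher was 4.21% undifferentiated, 4.21% aggregated and 4.62% differentiated. Bounds added 1, 1 and 2 genes in these states. None measured on both arrays was 2-fold lower, with Foxa2 lower by a bound after replating, and the share of all genes 2-fold lower was 4.11%, 3.12% and 3.96%. The genes were chosen with these differences known, so the counts describe the choice.

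A fit across all genes, used below for the pathway lists, set the line difference against its variation between states, since no line and state was repeated. It called 0.351% of genes between the lines at an adjusted p of 0.05, 47 genes, and 42.1% for the aggregation step. For the replating step limma called 0% of genes, 0 of 13381, although 4341 had an unadjusted p under 0.05 and normexp background correction gave 1402 calls. Its calls are not used for the 8 genes, which were chosen on the values it would test. The lists were also chosen with earlier results of these data known, so calls of their genes are given as a description.

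**Figure D3:**
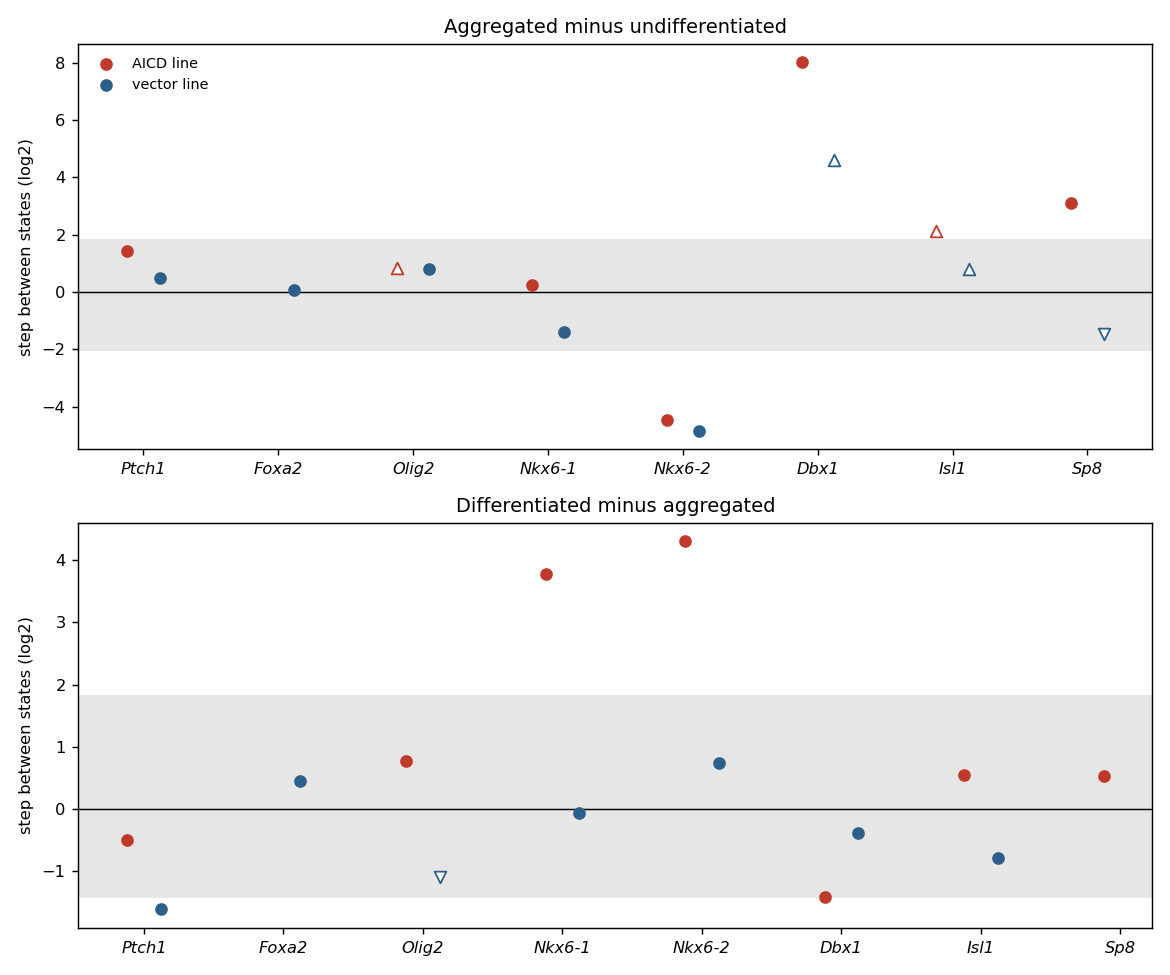
Steps between states within each line (log2), aggregated minus undifferentiated above and differentiated minus aggregated below, with the AICD line in red to the left of the vector line in blue. Open triangles are bounds, genes below the limit on both arrays have no point, and the grey band spans the wider of the 5th to 95th percentiles over all measured genes of the lines. Nkx6-1 and Nkx6-2 lie above the band at replating in the AICD line alone.

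The hedgehog pathway was described through a list of 19 other genes, of which 18 had a named probe and 17 were measured. Relative to the vector line, the AICD line had, at 2-fold or more, 2 higher and 1 lower of 16 genes measured on both undifferentiated arrays, 0 higher and 3 lower of 14 in aggregates, and 2 higher and 3 lower of 15 after replating. Smo, the transducer that Ptch1 holds off, differed by 0.03, -0.13 and 0.30 in the 3 states, Gli3 by 0.16, -0.25 and 0.22, and Gli2 by 0.70, -0.10 and 0.50. Hhip, which binds and holds the ligand, differed by 0.02, -1.29 and 1.19. Gli1, a target of the pathway, was not called between the lines and was below the limit in both lines after aggregation. Shh itself was well above background on 0 of 6 arrays.

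Among hedgehog ligands, Dhh was the exception and the single list member called between the lines. It was -2.68 undifferentiated, -3.94 aggregated and -3.84 differentiated in AICD cells, against -5.29, -6.35 and -6.91 in vector cells, the last 2 not well above background. The AICD arrays were the brighter in each state, and the fitted difference was 2.70 with a standard error of 0.18 (limma, adjusted p = 0.0383). That estimate includes the vector values not well above background, and it ran from 0.89 to 2.84 over the other settings. The hedgehog list was chosen with earlier results of these data known, so the call is a description. The adjusted p ran from 0.0401 to 0.233 over the other settings and passed in 2 of 7 distinct fits.

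Among proteins that bind the ligand at the cell surface, Gas1, Cdon and Boc had values below 0 and Lrp2 above 0, with none called. Gas1 differed by -1.86, -3.24 and -3.22 in the 3 states (limma, adjusted p = 0.0890, and 0.0395 over the aggregated and differentiated arrays alone), Cdon by -0.05, -2.25 and -1.14, and Boc by -0.22, -0.67 and -1.78. Lrp2 differed by 1.40, 0.19 and 1.30. On aggregation 6 of the 17 were called higher and 5 lower, where 1907 of all 13381 genes were called higher and 3727 lower. Boc rose by 5.50, Gas1 by 4.07, Scube2 by 3.26, Cdon by 2.82, Gli2 by 2.19 and Gli3 by 2.06, while Lrp2, Gli1, Dhh and Gpr161 were among those that fell. None of these calls held without an aggregated array. The list's median difference between the lines was 0.06, against 0.00 over all genes.

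Factors that act in ventral neuron classes made up a list of 21, with 17 measured. Gata2, a factor of ventral interneurons and of blood progenitors, was called higher in the AICD line: it was -0.33, -0.61 and 0.54 in AICD cells through the states, against -3.07, -2.99 and -1.83 in vector cells. Its fitted difference was 2.50 with a standard error of 0.15 (limma, adjusted p = 0.0320), and the adjusted p ran from 0.0163 to 0.233 over the other settings, passing in 5 of 8 distinct fits. This list was chosen with earlier results of these data known, so the call is a description. Gata3, its partner, differed by 3.96, 2.58 and 5.13.

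Motor neuron genes of the list stood higher in the AICD line too. Mnx1 was -3.20 in aggregated AICD cells and -4.86 in aggregated vector cells, and after replating it was at least 5.42-fold higher in AICD cells. Isl2 differed by 0.97, 1.94 and 2.08. Sim1, a factor of the most ventral interneurons, was below the limit on the 3 vector arrays and at least 1.33-fold higher in aggregated and 1.61-fold higher in differentiated AICD cells. Chat, the acetylcholine-synthesizing enzyme of mature motor neurons, was below the limit in both lines after replating. In the AICD line the signal exceeded that of the vector line by 2-fold or more for 2 of 13 genes measured on both undifferentiated arrays, 5 of 11 in aggregates and 5 of 12 after replating, and 0 were 2-fold lower among genes measured on both arrays. The median difference was 0.09, 0.81 and 0.86 in these states, against -0.06, 0.02 and 0.02 over all genes. On aggregation Lhx5 (4.13) and Lhx1 (3.78) were called higher and Foxd3, En1, Slc18a3 and Phox2a lower. Of all 13381 genes, 1907 were called higher at that step and 3727 lower.

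**Figure D4:**
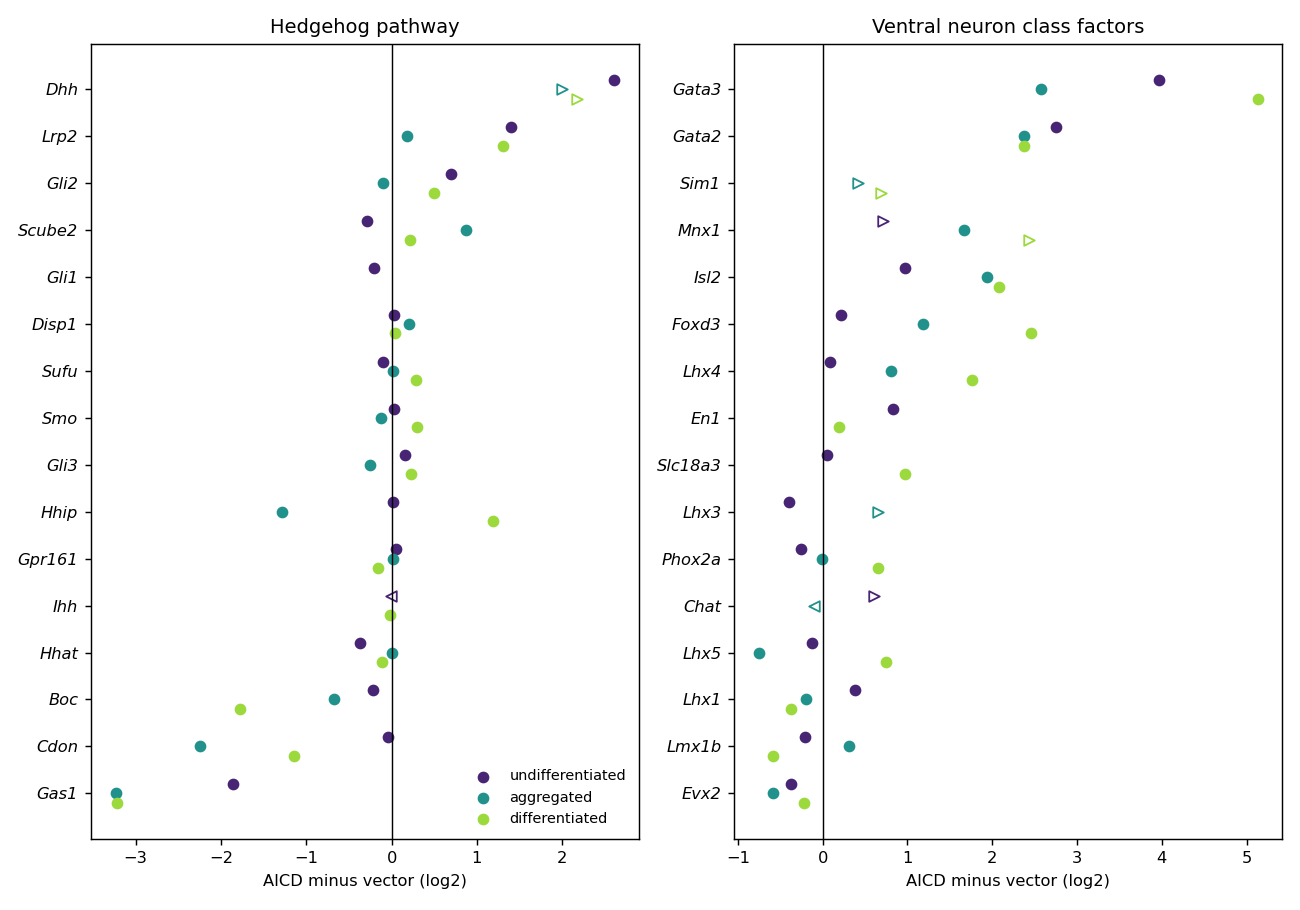
AICD minus vector (log2) in each state for genes of the hedgehog list (left) and of the ventral neuron list (right) that were measured and are reported here, ordered by their fitted line difference. Open triangles are bounds. Gata3 and Gata2 lead the right panel and Gas1 lies lowest on the left.

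Factors of other progenitor bands were counted in the same way. Of 26 listed, 18 were measured, 0 were called between the lines and the median line difference was -0.02. At 2-fold or more, the AICD line had 2 higher and 0 lower of 10 genes measured on both undifferentiated arrays. It had 0 higher and 3 lower of 17 in aggregates, and 1 higher and 4 lower of 13 after replating. Of all genes, 4.21%, 4.21% and 4.62% were 2-fold higher in these states, and 4.11%, 3.12% and 3.96% were 2-fold lower. On aggregation 12 were called higher, and Gsx1 and Dbx2 lower, where 1907 of all 13381 genes were called higher and 3727 lower. Those that rose included Pax3 by 8.82, Prdm8 by 7.41, Irx5 by 5.28 and Neurog2 by 5.27. The largest fitted line differences over the 3 states were -2.62 for Foxa1, -2.35 for Msx1, 1.42 for Pax6 and -1.28 for Pax3. By state, Msx1 differed by -0.09, -4.74 and -2.23, and Pax6 by 3.24, 0.16 and 0.87. Pax3, a dorsal factor, was -3.24 in differentiated AICD cells and -0.27 in differentiated vector cells. The ventral factors Nkx2-1 and Nkx2-2 and the Olig2 neighbour Olig1 were well above background on at most 1 array.

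Markers of other cell types moved with the lines as well. The summed linear signal of 7 fibroblast and mesenchyme genes, in units of the array's 75th percentile, was 1.75 undifferentiated, 1.19 aggregated and 0.521 differentiated in the AICD line, against 2.09, 6.22 and 30.5 in the vector line. All 7 fitted differences were below 0, with a median of -3.57, and 0 were called. Col3a1 was -4.14 in differentiated AICD and 3.72 in differentiated vector cells. The 6 measured embryonal carcinoma markers summed to 145, 12.9 and 17.4 in the AICD line through the states, against 158, 1.15 and 1.71 in the vector line, and Pou5f1 was 3.25 in differentiated AICD and -0.64 in differentiated vector cells. Whether these marker differences reflect cell makeup, and what part they have in the values of the 8 genes, was not tested.

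The neural markers that check the labelled fate were present in both lines. Their summed signal was 34.1, 89.8 and 136 in the AICD line, against 33.6, 69.7 and 168 in the vector line. Of the 9, 4 were called higher on aggregation and 0 lower, where 1907 of all 13381 genes were called higher and 3727 lower. Between the lines 0 of the 9 were called. Tissues outside the nervous system also use genes of the set. Of 9 endoderm markers, which share Foxa2, 4 were measured, and Ttr and Foxa3 were above background on 0 arrays. The sum of the 4 was 1.09, 0.481 and 0.484 in the AICD line and 1.01, 0.349 and 0.307 in the vector line, so it was not lower in the AICD line as Foxa2 was. The 4 measured node and notochord genes summed to 0.544, 0.540 and 0.455 in the AICD line and 0.594, 0.487 and 0.544 in the vector line. In aggregates T of that list differed by 2.32 and Nog by -1.04.

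Of the heart and mesoderm markers, which share Isl1, 6 of 7 were measured, and they summed to 3.60, 0.860 and 0.730 in the AICD line, against 5.53, 2.24 and 1.95 in the vector line. Nkx2-5 differed by -4.93, -3.90 and -3.29 in the 3 states, Tbx5 was at least 8.41-fold lower in aggregated and at least 7.19-fold lower in differentiated AICD cells, and Mef2c was higher in the AICD line by 1.33, 1.06 and 1.24. The islet genes Pdx1, Ins1 and Gcg were above background on 0 arrays, and the 3 measured islet markers summed to 0.395, 0.554 and 0.633 in the AICD line and 0.354, 0.936 and 0.776 in the vector line. The oligodendrocyte genes Mog and Cnp were likewise at 0 arrays. The 4 measured markers of that lineage summed to 3.90, 7.05 and 9.58 in the AICD line, against 3.15, 5.93 and 8.50 in the vector line. A linear sum is weighted to the brightest probe, here that of Mbp, which differed by 0.27, 0.25 and 0.22 in the 3 states. After replating Pdgfra differed by -1.64, while the other 3 markers lay above 0. None of the genes in these 5 lists was called between the lines, with a background of 0.351%.

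The genes whose profiles lay nearest to each member were found by Euclidean distance between centred log2 signals over the 6 arrays. The profiles include values not well above background, for members and neighbours alike. Nearest to Nkx6-2 was Napsa (distance 1.77, Pearson r = 0.97 over 6 arrays), followed by Timp4 and Mcf2. Nearest to Nkx6-1 were Ssxb2 (1.92, r = 0.92), Fbll1 and Nap1l5. For Dbx1, whose signal spans the widest range and whose distances are larger for that, they were Tagln3 (4.14, r = 0.91), Hoxc9 (r = 0.92) and Hoxb9 (r = 0.87). Sp8 was followed by Igfbpl1 (2.44, r = 0.95), Pdzk1 and Ssxb1. Ssxb2, Nap1l5 and Ssxb1 were well above background on the aggregated and differentiated AICD arrays alone. Napsa and Mcf2 were so on the undifferentiated arrays and the differentiated AICD array alone.

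The dimmer members had nearer neighbours. For Isl1 these were Neurod1 (1.51, r = 0.94), Lhx9 and Dync1i1, and for Ptch1 C1ql1 (0.54, r = 0.95), Zhx2 and Dmrt3. For Olig2 they were Slc2a1 (r = 0.96), Hmx3 and the motor neuron factor Mnx1, and for Foxa2 they were Plxdc2 (0.74, r = 0.98), Nkd2 and Crispld1. The 6 arrays share their lines and slides, so these likenesses describe the arrays and carry no p.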

How the data were processed

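RNA of 6 samples, 1 per line and state, was measured on Agilent single-colour arrays. Per the submitters' processing notes the scans were read with Agilent Feature Extraction 10.1.1.1, and per the file headers the deposited processed signal is an intensity after background subtraction. The authors also deposited a table of values of their own, whose unit is a score: between 99.7% and 99.8% of its listed values matched, within 0.05, a log2 signal scaled to the 75th percentile of each array and centred on the probe's median, with sizes under 1 written as reciprocals. Of its 41252 rows 23271 were blank on all arrays, so it served as an alternative.

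Outlier spots were left out, spots of a probe were averaged, and the log2 signal minus the array's 75th percentile was taken. Probes were named through RefSeq accessions (24844 of 41174). Probes well above background on at least 2 arrays were kept, and the brightest probe stood for a gene. Terms for state and line were fitted with limma 3.58.1 in R 4.3.3 (eBayes, two-sided, Benjamini-Hochberg over 13381 genes at 0.05), with 2 residual and 2.05 prior degrees of freedom. The error comes from how far the line difference varies among states, and nothing says that arrays came from separate cultures. A fold against an array below the limit uses the lowest signal well above background there. The normexp alternative (offset 50) used the median spot signal, since the mean signal was not in the files, which differs from the planned columns.

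The members and lists were chosen with earlier results of these data known. The naming rule took all 8 members, all hedgehog genes, up to 4 genes per list with the largest line difference or aggregation step, and the 3 nearest profiles, leaving out clone-style symbols. Isl2, Chat, Gsx1, Dbx2, Slc18a3, Phox2a, and the list markers given as not above background were named after their values were seen. Alternatives were the background correction, quantile normalization, the filter on dim probes, the choice of probe, the slide, the deposited values and leaving out each array. Some list members counted here are not reported by name. The whole-course contrast is not reported as a test. The number of arrays limits the precision.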

Additional observations from a re-analysis of the deposited data

Results flagged for a closer look

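Values below mark opposite directions in the groups compared, and in each case the difference was not tested, since there is 1 array per line and state. For Nkx6-1 the line difference was below 0 undifferentiated and above 0 later, so that it stood 1.62 higher (log2) in aggregated than in undifferentiated cells and 5.46 higher in differentiated than in undifferentiated cells. Within the lines, the Nkx6-1 step was above 0 in the AICD line and below 0 in the vector line: the AICD step exceeded the vector step by 1.62 at aggregation, by 3.83 at replating and by 5.46 over the whole course. The vector step at replating was -0.05, close to 0.

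For Ptch1 the line difference was likewise below 0 undifferentiated and above 0 later. It stood 0.92 higher in aggregated and 2.04 higher in differentiated than in undifferentiated cells, and over the whole course the AICD step exceeded the vector step by 2.04. For Isl1 the replating step was 0.55 in the AICD line and -0.79 in the vector line, a gap of 1.34. These differences were not tested either.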

How the results depend on the processing

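The number of genes called between the lines was 47, against 76 with normexp, 0 with no filter on dim probes, 97 within slide 2 and 0 to 97 when an array was left out (97 without either undifferentiated array, 0 without any other). For aggregation it was 5634, and 0 to 4185 when an array was left out, with 0 without either aggregated array, 1082 without undifferentiated vector cells and 3711 without undifferentiated AICD cells. For replating it was 0, but 1402 with normexp and 733 with genes well above background on all 6 arrays. With normexp, whose offset compresses dim signals by construction, genes at least 2-fold apart numbered 585 undifferentiated (1044 without it), 495 aggregated (879) and 666 differentiated (1053). When arrays were left out, fitted values of some members, a description with no test, changed sign: the Olig2 line difference ran from -0.19 to 1.98 around 1.20, and the aggregation steps from -2.35 to 1.19 for Nkx6-1 (-0.58 with all arrays), -0.21 to 2.12 for Olig2 (0.95), -1.52 to 0.32 for Foxa2 (-0.60) and -2.53 to 2.97 for Sp8 (0.22). The sign turned for Olig2 between the lines without either differentiated array, for Nkx6-1 without undifferentiated vector cells, for Olig2, Foxa2 and Sp8 without undifferentiated AICD cells, and for Sp8 also without aggregated AICD cells. Among hedgehog genes, 3 in place of 5 fell on aggregation with normexp, and in the ventral neuron list 3 in place of 5 were at least 2-fold higher in aggregated AICD cells; these counts were added as alternatives after seeing the data. No paired analysis was possible because the labels give no replicate numbers and each line and state has 1 array; the state term of the fit already sets the lines against each other within a state. Signal over background limits the dim genes. Foxa2, Olig2, Isl1 and Ptch1 lie near the background, and normexp reduced the differentiated line difference to 1.12 for Isl1, 0.51 for Ptch1 and -0.49 for Foxa2, and the undifferentiated one to 0.28 for Sp8 and 0.63 for Dbx1. It turned the aggregated difference of Olig2 to 0.20 and the aggregation step of Isl1 in the vector line to -0.02.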
